A study of Mus musculus with 2 samples.

Results

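The Kruppel-like factors (KLFs) described here are Klf1, Klf2, Klf3, Klf4, Klf5, Klf6, Klf9, Klf10, Klf11 and Klf13. They were taken by symbol, through the GENCODE names of their Ensembl identifiers, and all 10 had a row among the 43346 genes of both gene tables. The data were total RNA-seq of G1E, an immortalized mouse erythroid progenitor line that lacks functional GATA1, the master regulator of red cell genes. There was 1 group with 2 biological replicates and no treatment, so the levels of the genes could be compared with each other, but not between conditions. The labels gave strain C57BL/6J, male sex, a postnatal stage at an age of 0 days and 100 ng of RNA depleted of ribosomal RNA for each library, and traced both replicates to the same donor entry. G1E is a single line that was made in culture from embryonic stem cells with a targeted Gata1 gene, so the spread between replicates is that between cultures or libraries of this line.

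KLFs are transcription factors that bind CACCC and related GC-rich DNA through zinc fingers at the end of the protein. The part before the fingers differs between members and recruits the cofactors: acetyltransferases and remodelling complexes for the activators KLF1, KLF2, KLF4, KLF5 and KLF6, the corepressor CtBP for KLF3, and the corepressor Sin3a for KLF9, KLF10, KLF11 and KLF13. In red cell precursors KLF1 activates adult beta-globin and much of the red cell programme, and KLF3, whose gene KLF1 activates, can occupy the same CACCC elements and repress.

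In G1E the family was led by an activator of wide tissue range, a repressor induced by TGF-beta and the erythroid activator. Klf6 stood at 16.5 ± 2.62 TPM, Klf10 at 14.97 ± 0.0354 TPM and Klf1 at 9.63 ± 0.141 TPM (SD, n = 2 libraries; TPM is a level corrected for transcript length and library size). Together these 3 genes held 78.96% ± 0.528 (SD, n = 2) of the summed TPM of the 10. Klf9, Klf13, Klf3 and Klf11 followed between 1.315 and 4.135 TPM, and Klf5, Klf4 and Klf2 were at 0.025 TPM or below. These are levels in bulk RNA, in which fewer cells with a transcript and less transcript per cell cannot be told apart.

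Because the fingers are so alike, reads could in principle be shared between members, and the coding sequence of the finger region is shown for 5 members that the comparisons of level turn on. Klf2 and Klf4 are the closest pair in sequence, Klf1 is close to both of them, and Klf10 and Klf11 are close to each other. The stretches run from the first to the last zinc-binding residue of the leading or longest coding transcript in GENCODE M21, 5′ to 3′. The codons of the zinc-binding cysteines and histidines are in capitals.
Klf1: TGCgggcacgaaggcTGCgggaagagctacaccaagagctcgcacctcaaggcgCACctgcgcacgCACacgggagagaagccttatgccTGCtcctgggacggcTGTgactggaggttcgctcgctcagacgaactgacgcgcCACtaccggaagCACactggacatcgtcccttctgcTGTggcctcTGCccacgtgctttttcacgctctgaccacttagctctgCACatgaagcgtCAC
Klf2: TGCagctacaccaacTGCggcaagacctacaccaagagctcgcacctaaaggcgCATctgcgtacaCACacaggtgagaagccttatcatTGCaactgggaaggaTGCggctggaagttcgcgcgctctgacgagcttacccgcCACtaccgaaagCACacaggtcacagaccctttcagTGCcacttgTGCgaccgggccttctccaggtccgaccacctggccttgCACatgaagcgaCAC
Klf4: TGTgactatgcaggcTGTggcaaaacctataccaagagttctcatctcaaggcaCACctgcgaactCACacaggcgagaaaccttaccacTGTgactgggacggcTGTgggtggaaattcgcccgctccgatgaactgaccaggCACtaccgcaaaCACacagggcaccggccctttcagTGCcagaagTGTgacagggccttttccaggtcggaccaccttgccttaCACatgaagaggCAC
Klf10: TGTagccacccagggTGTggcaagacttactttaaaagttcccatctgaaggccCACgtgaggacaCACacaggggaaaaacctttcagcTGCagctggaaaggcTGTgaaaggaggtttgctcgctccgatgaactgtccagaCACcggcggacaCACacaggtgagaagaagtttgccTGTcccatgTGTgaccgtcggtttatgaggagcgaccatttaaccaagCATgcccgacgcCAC
Klf11: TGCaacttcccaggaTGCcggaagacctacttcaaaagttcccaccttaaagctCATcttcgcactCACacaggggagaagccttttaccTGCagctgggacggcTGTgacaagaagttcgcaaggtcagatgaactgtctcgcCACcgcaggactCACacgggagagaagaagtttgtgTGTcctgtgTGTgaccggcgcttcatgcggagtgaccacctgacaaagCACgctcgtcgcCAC
Each of the 10 genes encoded 3 fingers in a region of 243 bases, or 81 residues. Of these residues, 45 (55.6%) were identical in all 10 members. The median identity over the 45 pairs was 69.14% of residues and 64.61% of bases. Klf2 and Klf4 shared 91.36% of residues but 78.19% of bases. Klf10 and Klf11 shared 86.42% of residues and 76.13% of bases, and Klf1 shared 85.19% of residues with Klf4 and 83.95% with Klf2. The likeness was thus greater in the protein than in the RNA that was sequenced. The longest run of identical bases between the transcripts of any of the 45 pairs was 24 nt, between Klf5 and Klf9, against mean fragments of 213.2 and 192.5 nt. The deposited spread of the estimated count, which can be above 0 where reads are divided between genes, was 0 for each of the 10 genes in both libraries.

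The libraries held 58094631 and 55274368 estimated counts on genes. All 10 erythroid progenitor markers listed were detected, here meaning at least 1 TPM in replicate 1 and in replicate 2. Their median was 36.96 TPM. The highest was Car2, a carbonic anhydrase, at 269.07 and 274.99 TPM, and the lowest Epor, the erythropoietin receptor, at 2.24 and 3.24 TPM. Lists of markers of other cell types were counted in the same way. Over nuclear protein-coding genes the share detected in this way was 38.7%. None of 5 endothelial markers (Pecam1, Vwf, Kdr, Cdh5, Tek) was detected, with a summed level of 0.24 and 0.20 TPM. None of 7 pluripotency and fibroblast markers (Col1a1, Pdgfra, Col1a2, Nanog, Pou5f1, Sox2, Zfp42) was detected, with a sum of 0.60 and 0.13 TPM and Zfp42 at 0 in both. Of 6 monocyte and macrophage markers only Lyz2 was detected, at 1.34 and 1.33 TPM, while Cd68, Adgre1, Mpo, Csf1r and Cd14 were not, and the sum was 2.78 and 2.61 TPM. Of 5 mast cell markers 3 were detected, led by the protease Cpa3 at 113.05 and 97.07 TPM. Cma1 was at 36.06 and 36.36 TPM and Ms4a2 at 3.54 and 3.58 TPM. Fcer1a was not detected and Mcpt8 was at 0, and the sum over the 5 was 152.7 and 137.1 TPM. The part of mast cell gene expression in the KLF levels was not tested. Gata1 itself had 1862 and 1922 counts, or 7.06 and 7.13 TPM. The labels do not say which part of the gene was altered, so these reads do not check the label.

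Of the 10 KLFs, 7 were detected. The background was 38.7% of 21461 nuclear protein-coding genes and 21.0% of all 43346 genes. The median over the 10 was 2.715 TPM, with an SD of 0.0354 between the libraries' medians. The median was 0.055 TPM over nuclear protein-coding genes and 0.015 TPM over all genes. At 5 TPM in both libraries the count fell to the leading 3, Klf6, Klf10 and Klf1. The share of all genes at 5 TPM is not given here, so this fall has no background beside it. TPM is spread over all RNAs of a ribosome-depleted library, not over messenger RNAs alone. When TPM was rescaled so that nuclear protein-coding genes filled a total of 1000000, the median of the 10 rose to 15.52 and Klf6 stood at 101.7 and 86.31, with the same 7 of 10 genes past the threshold.

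**Figure D1:**
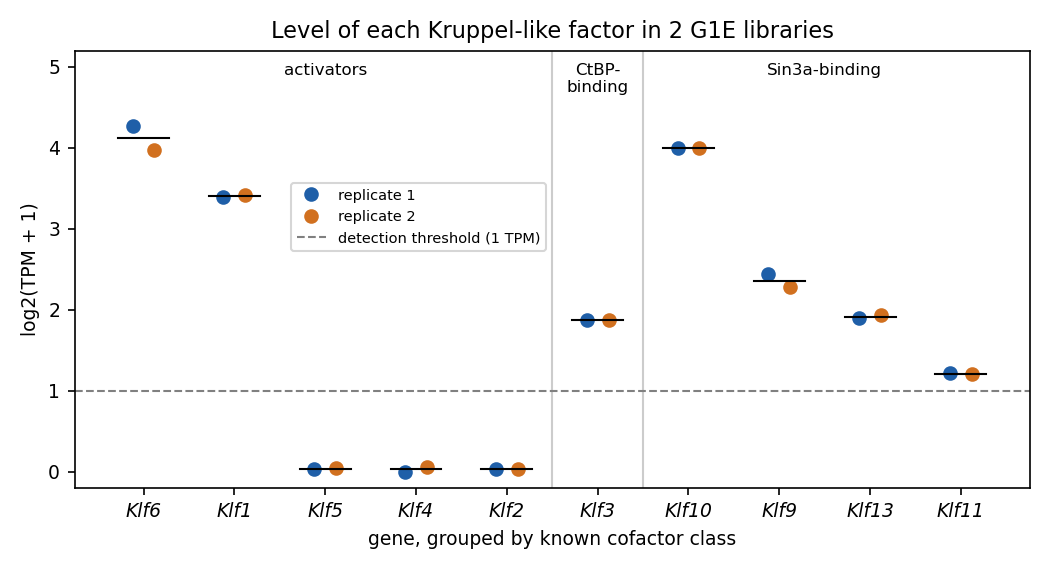
Level of each Kruppel-like factor as log2(TPM + 1), grouped by the cofactor class of its protein. Points are the 2 libraries, bars their mean, and the dashed line marks 1 TPM. Klf6, Klf10 and Klf1 lie at the top and Klf5, Klf4 and Klf2 at the bottom in both libraries.

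Among the activators, Klf6 (ENSMUSG00000000078.6, mm10 chr13:5861482-5870394, plus strand) had 12410 and 10043 counts, or 18.36 and 14.65 TPM. KLF6 is expressed in many tissues and was first described as a GC-box-binding activator. It was the highest of the 10 in replicate 1 but not in replicate 2, and its level stood at percentile 91.0 of nuclear protein-coding genes. Its SD in TPM was 15.9% of its mean, against 9.75% or less for the other detected members. On counts scaled by the TMM method, Klf1, Klf10, Klf3 and Klf11 differed more between the libraries than Klf6.

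Klf1 (ENSMUSG00000054191.7, chr8:84901928-84905291, plus strand), the erythroid activator, had 2126 and 2225 counts, or 9.53 and 9.73 TPM. Its 2 libraries were close, and its level stood at percentile 85.2. The level of Klf1 exceeded that of Gata1 by 0.39 ± 0.01 (difference of log2(TPM + 1), SD, n = 2), which was within the limit of 0.73 set by the replicate error of genes of like level.

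The other 3 activators were near the floor of the assay. Klf2 (ENSMUSG00000055148.7, chr8:72319033-72321656, plus strand), which controls vascular and lymphocyte quiescence, had 6 and 7 counts, or 0.02 TPM in each library. Klf5 (ENSMUSG00000005148.7, chr14:99298691-99315036, plus strand), an epithelial and smooth muscle factor, had 5 and 7 counts, or 0.02 and 0.03 TPM. Klf4 (ENSMUSG00000003032.8, chr4:55527143-55532466, minus strand), known from epithelia, monocytes and reprogramming to pluripotency, had 0 counts in replicate 1 and 5 in replicate 2, or 0 and 0.04 TPM. A count of 0 in replicate 1 allows up to 3 counts, or 0.0516 CPM (counts divided by library size only; counting error only), so a level of Klf4 below that was not detectable at this depth. All 3 lay below 1 TPM in both libraries.

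The CtBP-binding repressor Klf3 (ENSMUSG00000029178.10, chr5:64803388-64832901, plus strand) had 937 and 947 counts, or 2.66 and 2.65 TPM. Both libraries gave nearly the same value. The other KLFs that bind CtBP were not detected: Klf8, which KLF1 activates and KLF3 represses, was at 0.01 and 0 TPM, and Klf12 was listed at 0 in both. Klf3 exceeded Klf8 by 1.86 ± 0.01 and Klf12 by 1.87 ± 0.00 on the log2(TPM + 1) scale (SD, n = 2), both past the replicate limit of 0.73. Any detected gene would pass this limit against Klf8 and Klf12.

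All 4 Sin3a-binding repressors were detected. Klf10 (ENSMUSG00000037465.9, chr15:38291463-38300706, minus strand), the early TGF-beta-induced repressor, had 7147 and 7287 counts, or 14.95 and 15.0 TPM, at percentile 90.1. Klf9 (ENSMUSG00000033863.1, chr19:23141226-23168134, plus strand), a target of glucocorticoid and thyroid hormone receptors, had 2276 and 2014 counts, or 4.42 and 3.85 TPM. Klf13 (ENSMUSG00000052040.9, chr7:63886351-63938915, minus strand), a regulator of chemokine genes in T cells, had 2526 and 2317 counts, or 2.72 and 2.83 TPM. Klf11 (ENSMUSG00000020653.7, chr12:24651274-24662789, plus strand), a close relative of Klf10, had 841 and 843 counts, or 1.32 and 1.31 TPM, the lowest of the detected members and the one nearest to the threshold. Klf10 alone stood well above the other 3 of this class in both libraries.

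Summed by class, the 5 activators reached 26.2 ± 2.45 TPM from 2 detected genes, and the 4 Sin3a-binding repressors 23.2 ± 0.297 TPM from 4 (SD, n = 2). The sum of the activators was higher in replicate 1, at 27.93 against 24.47 TPM, and that of the Sin3a class was at 23.41 and 22.99 TPM. With the other KLF genes of each class added, the sums were 27.95 and 24.49 TPM for the activators and 24.54 and 24.41 TPM for the Sin3a class, which overlap. Klf3 alone made up the CtBP class, at 2.655 ± 0.00707 TPM. By share of the summed TPM of all 10, Klf6 held 31.62% ± 3.37, Klf10 28.81% ± 1.59 and Klf1 18.53% ± 1.25, and the next was Klf9 with 8.185% and 7.683% in the 2 libraries.

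The order of the 10 was read against the replicate error. With 2 libraries no gene has a test of its own, so 2 genes were called separated when their means of log2(TPM + 1) differed by more than 3 SDs of such a difference between single values, from the SD pooled over detected genes of like level. The limit came to 0.73 between 1 and 10 TPM and 1.03 between 10 and 100 TPM. Of the 45 pairs 34 were separated. These were all 21 pairs of a detected and an undetected member, 13 of the 21 pairs among detected members and 0 of the 3 pairs among Klf5, Klf2 and Klf4. The undetected members lay so near the floor that any detected gene would pass the limit against them. The calls of a detected against an undetected member therefore restate detection and add nothing to it.

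Of the 9 neighbours in the order, 2 were separated. Klf1 lay above Klf9 by 1.05 ± 0.13 (SD, n = 2; limit 0.73), and Klf11 above Klf5 by 1.18 ± 0.01. Klf6 and Klf10 differed by 0.12 ± 0.22 and changed places between the libraries. Klf10 exceeded Klf1 by 0.59 ± 0.02, within the limit of 1.03. Klf9 exceeded Klf13 by 0.44 ± 0.14, Klf13 exceeded Klf3 by 0.05 ± 0.03 and Klf3 exceeded Klf11 by 0.66 ± 0.00, each within the limit of 0.73. The order therefore held 3 tiers. The upper was Klf6, Klf10 and Klf1, the middle Klf9, Klf13, Klf3 and Klf11, and the lower Klf5, Klf2 and Klf4. The replicate error separates the upper from the middle tier at their edge, while the edge of the lower tier restates the detection threshold. The middle tier was not uniform, since Klf9 exceeded Klf11 by 1.15 ± 0.11 against the limit of 0.73. With CPM in place of TPM, which leaves transcript length uncorrected, Klf1 and Klf9 differed by 0.02 and were not separated, while Klf10 exceeded Klf1 by 1.70 and was.

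**Figure D2:**
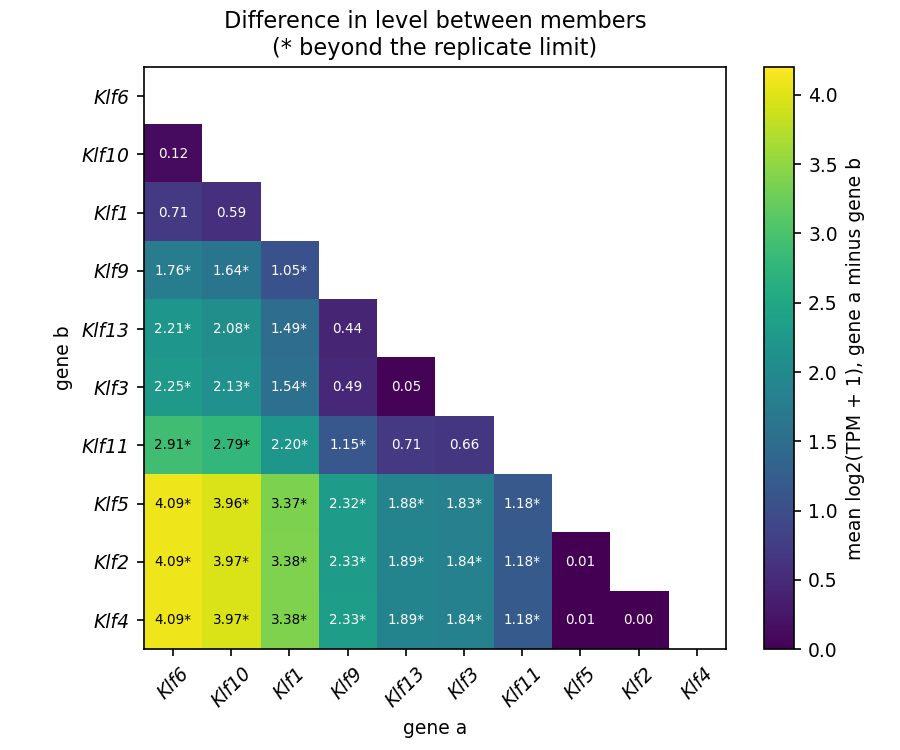
Difference in mean log2(TPM + 1) between each pair of members, gene a on the x axis minus gene b on the y axis, in order of level. A star marks the 34 of 45 pairs past the replicate limit, and the unmarked pairs lie within the 3 tiers.

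The pairs whose fingers are shown above differed in how their levels compared. Klf10 stood 11.4-fold above Klf11 in mean TPM, by 2.79 ± 0.01 on the log2(TPM + 1) scale against a limit of 1.03. Klf1 exceeded Klf2 by 3.38 ± 0.02 against a limit of 0.73, which any detected gene would pass against Klf2. Klf2 and Klf4, the closest pair in sequence, were both undetected and were not separated. The erythroid activator and its repressing counterpart were also apart, with Klf1 3.63-fold above Klf3 in mean TPM and 1.54 ± 0.02 higher on the log2(TPM + 1) scale (limit 0.73). These comparisons are of RNA levels within G1E, and the files hold no protein measurement.

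The 10 genes were then set beside the rest of the family. Of the other 7 KLF genes only Klf16, a Sin3a-binding member, was detected, at 1.13 and 1.41 TPM. Klf7, Klf17, Klf8, Klf14 and Klf15 were at 0.02 TPM or below in both libraries and Klf12 at 0. Klf13 exceeded Klf16 by 0.74 ± 0.10, barely past the unrounded limit, and the call was lost under 4 of the alternative settings. The SP factors, which share the finger fold and bind GC boxes, had 3 of 9 members detected. The share over nuclear protein-coding genes was 38.7%. Sp3 had the highest level of all 26 KLF and SP genes at 23.89 and 24.81 TPM, Sp1 was at 9.36 and 7.70 TPM and Sp4 at 2.34 and 1.97 TPM. Sp2, Sp9, Sp7, Sp6 and Sp8 were not detected and Sp5 was listed at 0. All 17 KLF genes summed to 53.37 ± 2.55 TPM and the 9 SP genes to 35.37 ± 0.891 TPM (SD, n = 2).

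**Figure D3:**
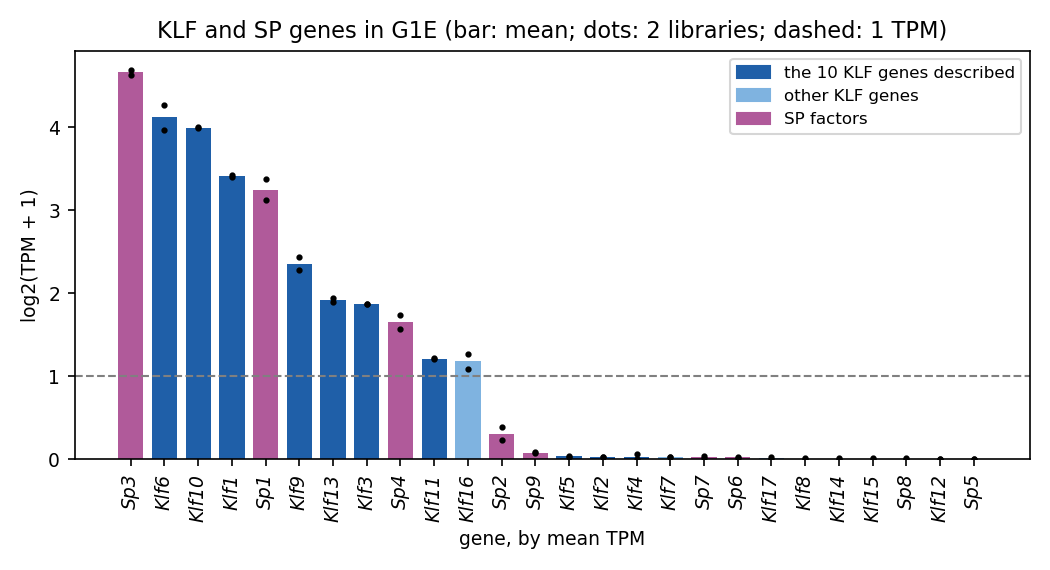
Level of all 17 KLF and 9 SP genes as log2(TPM + 1), in order of mean TPM. Bars are means, dots the 2 libraries and the dashed line 1 TPM. Sp3 leads, Klf6, Klf10 and Klf1 follow, and 15 genes lie below the line.

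The partners and targets of the KLFs were counted in whole lists taken from their known roles. All 15 KLF cofactors were detected, against 38.7% of nuclear protein-coding genes, with a median of 7.93 TPM. They included both CtBP genes, with Ctbp1 at 22.31 and 20.6 TPM and Ctbp2 at 10.34 and 9.14 TPM. Of the Sin3 scaffolds, Sin3b was the highest of the list at 33.31 and 33.49 TPM, and Sin3a was at 8.53 and 7.81 TPM. The acetyltransferase gene Crebbp was the lowest at 1.61 and 1.52 TPM. RNA for CtBP and Sin3 corepressors was present in both libraries.

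Of 19 genes listed as KLF1 targets 18 had a row, with a median of 1.98 TPM. Of these, 11 were detected, against 38.7% of nuclear protein-coding genes. The highest was Ermap, a red cell surface protein, at 17.79 and 14.12 TPM. The lowest was Aqp1, the water channel, listed at 0 in both. Of the late red cell genes, the haem synthesis gene Alas2 was at 0.20 and 0.15 TPM and the anion exchanger gene Slc4a1 at 0.22 and 0.25 TPM, both undetected. The adult beta-globin gene Hbb-bs was at 1.41 and 3.31 TPM, and its near-identical neighbour Hbb-bt at 0.90 and 1.98 TPM, below the threshold in replicate 1 only. The division of reads between these 2 copies is uncertain. Dmtn, Bcam and Klf8 were the remaining undetected targets. Of the known KLF2 targets, the integrin gene Itgb7 was detected, at 3.6 and 3.58 TPM, and the sphingosine phosphate receptor gene S1pr1 was not, at 0.48 and 0.37 TPM.

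Klf10 and Klf11 are known as TGF-beta-responsive genes. Of 7 genes of that pathway 4 were detected, against 38.7% of nuclear protein-coding genes, with a median of 5.24 TPM. Smad2, a signal transducer, was the highest at 13.74 and 11.63 TPM, and the ligand gene Tgfb1 was at 5.37 and 5.11 TPM. The type I receptor gene Tgfbr1 was at 12.07 and 10.91 TPM. The type II receptor gene Tgfbr2 was at 0.01 and 0 TPM, the transducer Smad3 at 0.89 and 0.55 TPM and the inhibitory Smad7 at 0.02 and 0.01 TPM. RNA for the type I receptor was thus detected and that for the type II receptor was not.

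Promoter windows are shown for Klf1, a known target of the GATA1 that G1E lacks, and for Klf3, a known target of KLF1. The windows are from RefSeq on GRCm38.p6 and run from 250 bases before to 50 after the RefSeq start. Klf1, chr8:84901732-84902031, plus strand, has its match to a GATA word in capitals, and Klf3, chr5:64803271-64803570, plus strand, its matches to the KLF-type word CCNCNCCC.
Klf1: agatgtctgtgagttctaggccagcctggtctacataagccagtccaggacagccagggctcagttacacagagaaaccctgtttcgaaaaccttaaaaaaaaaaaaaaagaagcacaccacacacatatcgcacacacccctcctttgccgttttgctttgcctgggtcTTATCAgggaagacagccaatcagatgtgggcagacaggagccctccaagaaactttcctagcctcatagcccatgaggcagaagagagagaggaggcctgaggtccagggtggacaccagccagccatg
Klf3: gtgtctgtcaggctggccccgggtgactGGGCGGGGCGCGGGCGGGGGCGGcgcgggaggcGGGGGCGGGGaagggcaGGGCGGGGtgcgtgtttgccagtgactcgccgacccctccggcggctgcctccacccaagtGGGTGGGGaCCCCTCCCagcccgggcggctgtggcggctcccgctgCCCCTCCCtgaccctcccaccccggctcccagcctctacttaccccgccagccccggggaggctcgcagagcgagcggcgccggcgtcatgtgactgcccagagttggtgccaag
A GATA word was GATA with A or T before it and A or G after it, and the KLF-type word was CCNCNCCC, which the letters CACCC alone do not meet. Both strands were searched and overlapping matches counted. The Klf1 window held 1 GATA word, on the minus strand at bases -80 to -75 from the start, and 0 KLF-type words, though the letters CACCC occurred 2 times in it. The Klf3 window held 10 matches to the KLF-type word, several of them overlapping, and 0 GATA words. Its GC content was 76.7% against 51.3% in the Klf1 window and a median of 52.7% over all windows. The leading transcripts began 54 bases (Klf1) and 133 bases (Klf3) before the RefSeq starts.

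A window was found for 8 of the 10 genes, all but Klf5 and Klf10. GATA words were in 2 of the 8, Klf1 and Klf2, against 29.8% of all 32851 windows of this length. The KLF-type word was in 6 of the 8, all but Klf1 and Klf9, against 49.5%. This word is itself GC-rich, and the windows that held it were 63.0% to 77.7% GC, against a median of 52.7% over all windows. The windows of Klf1 and Klf9 were at 51.3% and 63.3%. The share was not adjusted for GC content. The letters CACCC alone were in 5 of the 8, Klf1 and Klf9 among them, against 57.5%. Klf2, at 0.02 TPM, held both the GATA and the KLF-type word, and Klf9, which was detected, held neither. A link between these words and the level of the members was not tested. A match is a string of letters only, and no binding was measured.

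Transcript tables gave 19 transcripts for the 10 genes, and 6 genes had 1 transcript each. Among the detected genes with several, Klf3, Klf11 and Klf13, the same transcript led in both libraries. Klf3-201 held 98.01% and 96.56% of the Klf3 TPM, and Klf3-202, which starts further downstream, held 1.99% and 3.44% from 12.05 and 21.31 counts. Klf11-201 held 100% in both. Klf13-201 held 87.61% and 74.67%, and the retained-intron transcript Klf13-203 12.39% and 22.67%, from 41 and 81 counts. The share of Klf13-203 was larger in replicate 2, and RNA not yet spliced and a stable retained intron cannot be told apart in these total RNA tables. The 5 counts of Klf4 in replicate 2 were all given to Klf4-203, a transcript of 859 nt.

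**Figure D4:**
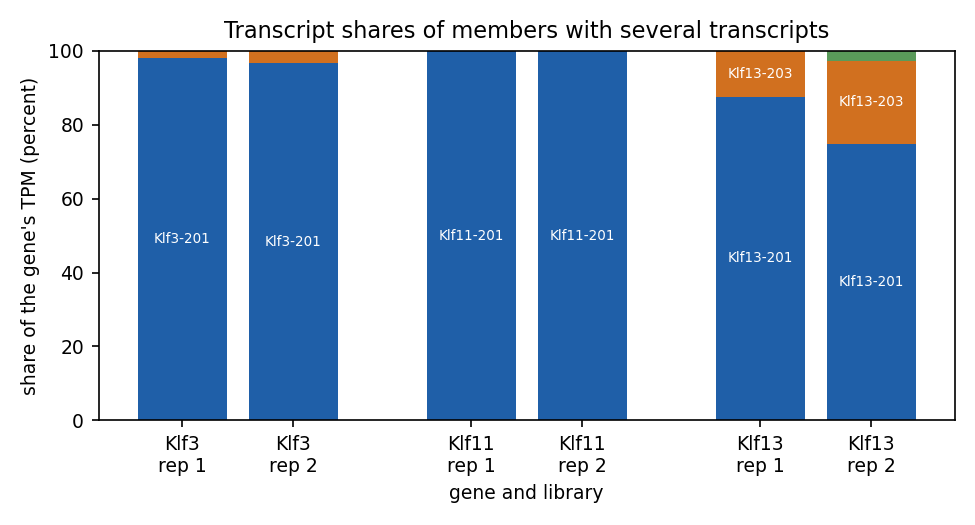
Percent of each gene's TPM held by each of its transcripts in the 2 libraries, for the 3 detected members with several transcripts. The first transcript (201) leads throughout, and the retained-intron Klf13-203 holds 12.39% in replicate 1 and 22.67% in replicate 2. The unlabelled narrow bands are Klf3-202 and Klf13-202.

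The annotated length enters each TPM. Of the 19 transcripts 11 had the same length in the files' annotation and in GENCODE M21. Klf3-201 was 2314 nt in the files and 5221 nt in M21, Klf5-201 was 1721 and 3352 nt, and Klf9-201 was 3263 and 4486 nt. The levels of Klf3, Klf5 and Klf9 rest on these shorter models. Genes on the opposite strand overlap Klf3 (Gm20033, 7 and 0 counts) and Klf13 (E030018B13Rik, 0 in both, and Gm27252, 0 and 1). The labels and headers do not say whether counting used strand.

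Replicate 2 was last set against replicate 1 for every gene, by an exact binomial test (two-sided) on TMM-scaled counts. It covers counting error only and compares these libraries, not conditions. Among 18409 genes with at least 10 counts, 14.6% differed by at least 2-fold at adjusted p below 0.05. None of the 9 KLFs tested did, and Klf4 had too few counts for the test. By adjusted p alone 5 of the 9 passed, against 50.4% of all genes tested. With a negative binomial test at the common dispersion, 0 of the 9 passed, against 7.21% of all genes tested. That dispersion was estimated from the same 2 libraries taken as 1 group. The differences under test had therefore entered it, and the test could hardly call small ones. Klf6 was lower in replicate 2 by a log2 difference of -0.14 (adjusted p = 2.47e-11, exact binomial test), and Klf10 was higher by 0.20 (adjusted p = 2.18e-15, exact binomial test). Klf1 was higher by 0.24 (adjusted p = 4.47e-07), Klf3 by 0.19 (0.0135) and Klf11 by 0.17 (0.0295) in the same exact test. Klf9, at -0.01, and Klf13, at 0.05, did not pass it. The median absolute log2 difference was 0.17 over the detected KLFs and 0.15 over all detected genes.

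**Figure D5:**
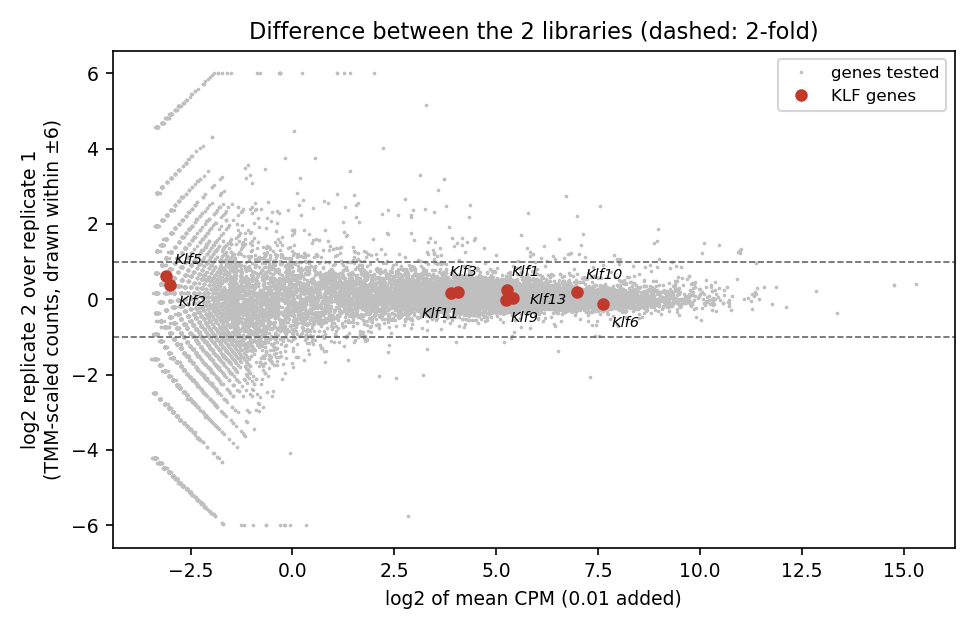
Log2 ratio of replicate 2 to replicate 1 against log2 mean CPM for all genes tested (grey) and the 9 KLFs tested (red). All 9 lie inside the dashed lines at 2-fold. The detected members lie between -0.14 and 0.24.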

How the data were processed

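Total RNA-seq of 2 G1E replicates was analysed, with 58094631 and 55274368 estimated counts on genes. Per the labels, 100 ng of ribosome-depleted RNA and inserts of 200 to 1000 nt were used. The mean fragments of 213.2 and 192.5 nt were derived from the deposited lengths and effective lengths of genes. That of replicate 2 lies below the labelled range, and this difference was not resolved. The authors deposited, per the file headers, estimated counts, TPM and FPKM per gene and transcript, bounds of a TPM interval and a spread of the count (a signal that is never negative), and the percent of each gene's TPM in each transcript. Per the deposited read-me text, reads were aligned to transcripts of GENCODE M4 on mm10. No aligner, quantifier or version is given in the sources used here. FPKM, deposited by the authors, was not used.

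Symbols and coordinates came from GENCODE M21, of the same build, which named 42462 of 43346 genes. One listed KLF1 target, Ahsp, was not matched. Levels are deposited TPM, to 2 decimals. Detection was at least 1 TPM in both libraries. Separation of 2 genes used log2(TPM + 1) and a limit of 3 SDs of a difference, from the larger pooled SD of their bins (edges 10, 100 and 1000 TPM; genes under 1 TPM took the lowest bin). The libraries were compared on rounded estimated counts with TMM sizes from edgeR 4.0.16 in R 4.3.3, an exact binomial test in scipy 1.17.1, Benjamini-Hochberg adjustment over genes with 10 counts or more, and a 2-fold minimum. The edgeR common dispersion gave a biological coefficient of variation of 16.55% over 13335 genes and an alternative exact negative binomial test. DESeq2 1.42.0 gave alternative size factors. Posterior means, other thresholds, a pseudocount of 0.1, CPM and each library left out were the other alternatives. The procedures were tested on simulated data.

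All 10 members were named, and of each other list the highest, the lowest, the undetected members of lists of 10 or fewer, the genes of fixed pairs and Gata1. The members and lists were chosen with earlier results of these data known. The cofactor classes, the motif words, the sequences shown, and the annotation lengths and overlaps were chosen after the members' values had been seen. So were a few further cofactor, target, pathway and mast cell genes that are named. The counts over the lymphoid marker and KLF2 target lists are not reported here.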

Additional observations from a re-analysis of the deposited data

How the results depend on the processing

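No paired analysis was possible because there was a single group. The 7 detected members stayed 7 at a threshold of 0.5 TPM, with posterior mean TPM, with rescaled TPM and without either replicate, and were 3 at 5 TPM. The other KLF and SP genes detected were 4 of 16, and 2 at 5 TPM. The share over all genes is given at 1 TPM only, so the counts under other settings have no background beside them. The members' median of 2.715 TPM was 2.69 to 2.74 with 1 replicate left out and 15.52 after rescaling to nuclear protein-coding genes. The 34 separated pairs ranged from 30 to 37 over 7 alternatives. The genes differing between libraries were 2689, and 1328 with the negative binomial test, with 0 members in either. The same 3 leading transcripts were counted under every alternative run.

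Without replicate 1 and without replicate 2, Klf6 over Klf10 was -0.0319 and 0.2795, Klf2 over Klf4 -0.028 and 0.0286, and Klf4 over Klf5 0.0139 and -0.0286, so that each changed sign. With CPM, Klf9 against Klf13 turned to -0.172 and Klf5 against Klf2 to -0.0113, Klf1 over Klf9 fell within the limit at 0.02, and Klf10 over Klf1 (1.70) and Klf13 over Klf3 (1.31) passed it. With a pseudocount of 0.1, Klf3 over Klf11 passed at 0.96 against a limit of 0.93. Klf13 over Klf16 (0.74) lost its call against the pooled limit of 0.90 and the unfiltered limit of 0.81, at 0.67 without replicate 1, and at 1.04 against 1.13 after rescaling. The cause was not tested beyond what each setting changes. Limits: n = 2 allows no test per gene, TPM of 2 decimals is coarse for Klf2, Klf4 and Klf5, and intervals of the counts cover counting error only.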
